A study of Rattus norvegicus with 18 samples.

Results

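The genes described here encode nucleolar factors that build ribosomes. A list of 50 such genes was matched by symbol to the deposited expression table of 13188 genes from Rat1 fibroblasts, and 46 were found; Nhp2, Rrp12, Rrp1b and Tsr1 were not analysed here. The table held 18 RNA-seq libraries in 6 groups of 3. All cells were of the line HO15.19, a rat fibroblast line that lacks both copies of c-myc (myc-/-), grown in 10% serum. MYC cells carried human MYC, stably introduced by viral infection and expressed from the retroviral vector pBabe, and no separate clones are named. The groups were myc-/- with no transfection, myc-/- transfected with a control siRNA (siCtrl), myc-/- + MYC with no transfection, myc-/- + MYC with siCtrl, and myc-/- + MYC with siAHR-2 or with siAHR-5, which are siRNAs to the receptor AHR. Transfection was with 40 nM siRNA for 48 h.

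Ribosomes are assembled in the nucleolus. RNA polymerase I transcribes the ribosomal DNA into a long precursor, small nucleolar RNA-protein particles (snoRNPs) modify its nucleotides, and a succession of large assemblies fold and cut it into the RNAs of the small and large subunits. MYC is a transcription factor that binds E-box motifs together with MAX, and genes of ribosome production are among its best known targets. AHR, the aryl hydrocarbon receptor, is a ligand-activated transcription factor.

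The libraries had been put on one scale as what is called set A here (6 libraries, of myc-/- + MYC and of myc-/- siCtrl) and on another as set B (the 12 of the other groups), so all comparisons were made within a set. Within each set the transfection changed together with MYC. In set A the siCtrl label was on the myc-/- libraries, and in set B it was on the MYC libraries. The effect of MYC and that of transfection cannot be told apart within a set. Nothing in the labels says that the 3 libraries of a group came from separate cultures, so p-values measure only the spread between these libraries.

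The rat Myc transcript was lower with MYC by a log2FC of -1.26 in set A and -2.68 in set B, and transcripts of the human transgene were not analysed here. Rat Myc was read in the cells without MYC too, at log2 values of 10.82 to 10.94 in myc-/- and 9.16 to 9.47 in myc-/- siCtrl, where the medians over all genes were 11.65 to 11.67 and 11.00 to 11.01. Which part of the gene the deletion removes was not analysed here, so these values do not check the labels. Ahr had a log2FC of -1.29 with siAHR-2 and -1.39 with siAHR-5. Of 10 fibroblast markers, 9 had a mean log2 value of at least 5 in every group, and Col1a2, a defining one, did not (3.64 to 4.13 over all libraries). The summed log2 value of these 10 markers was 141.1 to 142.1 in myc-/- siCtrl against 134.9 to 135.5 in myc-/- + MYC, and 138.2 to 138.5 in myc-/- against 122.6 to 122.8 in myc-/- + MYC siCtrl. At an adjusted p below 0.05, 3 of the 10 were higher and 7 lower with MYC in set A. In set B 0 were higher and 8 lower by that rule. In set A Col3a1 went from 15.66 to 15.71 up to 16.92 to 17.07, and Col1a1 from 19.28 to 19.31 down to 17.52 to 17.61. In set B Col1a1 went from 20.93 to 21.07 down to 15.05 to 15.08. Summed markers of other cell types moved as well. From myc-/- siCtrl to myc-/- + MYC, 5 hematopoietic markers went from 38.9 to 39.2 down to 35.7 to 36.1, 3 muscle markers from 21.7 to 22 down to 18.6 to 18.9, 6 epithelial markers from 24 to 24.1 down to 22.7 to 23, and 5 endothelial markers from 29.7 to 29.9 down to 28.9 to 29.4. The endothelial markers went in opposite directions, with Tek from 5.63 to 5.65 up to 7.18 to 7.39 and Vwf from 9.51 to 9.59 down to 7.53 to 7.78, and 2 of the 5 were higher and 3 lower at an adjusted p below 0.05. From myc-/- to myc-/- + MYC siCtrl the sums were 32.5 to 32.8 and 30.8 to 31.1 (hematopoietic), 18.6 to 19.2 and 16.4 to 16.7 (muscle), 15.8 to 15.9 in both (epithelial), and 36.1 to 36.4 and 33.2 to 33.4 (endothelial). In set B Vwf went from 9.88 to 10.15 down to 6.85 to 7.09 and Tek from 8.53 to 8.86 up to 9 to 9.20, and these were the endothelial markers at an adjusted p below 0.05. By that rule 1 hematopoietic marker was higher and 4 lower in set A, and 0 and 3 in set B. Of 3 Y-linked genes 2 were higher with MYC in both sets by the same rule, and Eif2s3y was at 10.45 to 10.48 against 5.94 to 5.99 in set A and 13.12 to 13.26 against 8.89 to 8.97 in set B. The part of these differences between the lines in the results below was not tested.

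Promoter windows were available for 43 of the 46 genes, each with 250 bases before and 50 bases after the annotated transcription start (RefSeq, assembly GRCr8; the reads had been aligned to rn6, another build). The canonical E-box CACGTG, which reads the same on both strands, lay in 15 of the 43 windows (34.9%), against 6.7% of 27457 windows in all and 8.9% of the 9842 windows of genes in the table. The non-canonical CACGCG, or CGCGTG on the other strand, lay in 14 of the 43 (32.6%), against 9.1% and 15.5%. The paper also counts CAAGTG and CACCTG as non-canonical E-boxes, and these were not searched here. The letters of one motif cannot overlap those of the other, and Gnl3, Dkc1, Wdr75, Utp20 and Utp18 hold both. A match describes only the letters. Windows of 6 genes are shown because they span the response to MYC described below. Nle1 (chr10:68340131-68340430, minus strand), Gnl3 (chr16:6219733-6220032, minus strand) and Dkc1 (chrX:157751401-157751700, plus strand) hold CACGTG and passed the cutoffs defined below as higher with MYC, Dkc1 in one set and the others in both. Nat10 (chr3:110604780-110605079, minus strand) holds it and passed in neither set. Nop14 (chr14:80305662-80305961, plus strand) holds neither searched motif and had the lowest log2FC. Ddx21 (chr20:31097189-31097488, minus strand) had the highest log2FC and was chosen after its values were seen. Sequences run 5′ to 3′ on the gene's strand, and capitals mark only CACGTG and CACGCG (or CGCGTG). Other non-canonical E-boxes are left unmarked.
Ddx21: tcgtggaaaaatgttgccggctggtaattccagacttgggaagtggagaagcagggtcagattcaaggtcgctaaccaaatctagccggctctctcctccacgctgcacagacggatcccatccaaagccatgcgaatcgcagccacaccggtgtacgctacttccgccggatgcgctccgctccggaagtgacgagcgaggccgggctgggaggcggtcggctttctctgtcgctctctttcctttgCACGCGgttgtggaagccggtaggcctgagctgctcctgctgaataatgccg
Nle1: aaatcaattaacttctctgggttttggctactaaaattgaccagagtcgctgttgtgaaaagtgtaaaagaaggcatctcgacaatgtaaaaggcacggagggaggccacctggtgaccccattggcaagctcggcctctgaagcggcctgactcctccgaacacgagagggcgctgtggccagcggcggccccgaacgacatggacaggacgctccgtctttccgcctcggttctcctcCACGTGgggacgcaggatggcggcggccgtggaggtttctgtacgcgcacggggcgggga
Gnl3: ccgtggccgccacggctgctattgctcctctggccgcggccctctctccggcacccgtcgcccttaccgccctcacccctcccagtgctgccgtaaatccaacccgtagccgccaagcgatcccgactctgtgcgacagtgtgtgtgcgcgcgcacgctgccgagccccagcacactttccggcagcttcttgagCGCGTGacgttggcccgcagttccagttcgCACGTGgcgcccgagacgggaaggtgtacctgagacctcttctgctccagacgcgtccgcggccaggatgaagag
Dkc1: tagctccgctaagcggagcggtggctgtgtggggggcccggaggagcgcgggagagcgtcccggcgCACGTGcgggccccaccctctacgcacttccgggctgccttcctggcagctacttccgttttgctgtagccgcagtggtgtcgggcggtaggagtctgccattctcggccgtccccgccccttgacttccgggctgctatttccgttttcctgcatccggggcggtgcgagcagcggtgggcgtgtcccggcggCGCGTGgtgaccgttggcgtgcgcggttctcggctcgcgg
Nat10: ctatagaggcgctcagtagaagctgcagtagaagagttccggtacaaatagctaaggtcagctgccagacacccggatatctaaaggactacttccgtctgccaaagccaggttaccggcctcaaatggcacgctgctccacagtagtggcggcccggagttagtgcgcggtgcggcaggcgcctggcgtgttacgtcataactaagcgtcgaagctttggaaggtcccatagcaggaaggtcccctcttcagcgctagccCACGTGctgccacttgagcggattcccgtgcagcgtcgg
Nop14: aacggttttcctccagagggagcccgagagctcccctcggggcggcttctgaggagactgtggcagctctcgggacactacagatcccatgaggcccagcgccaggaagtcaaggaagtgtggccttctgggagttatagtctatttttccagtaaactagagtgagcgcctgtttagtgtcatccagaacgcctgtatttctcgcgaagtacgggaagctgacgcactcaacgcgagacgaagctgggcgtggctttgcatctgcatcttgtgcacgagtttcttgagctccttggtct

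The first base of CACGTG lay at -10 in Nle1, -25 in Gnl3, -184 in Dkc1 and +12 in Nat10, counted from the annotated start. The CACGCG of Ddx21 began at -2. Holding the canonical motif did not go with a larger difference. The 15 genes with CACGTG had a median log2FC of 0.18 in set A and 0.33 in set B, and the 28 without it 0.42 and 0.60. Of the 15, 3 passed the cutoffs (below) as higher in each set, and of the 28, 10 and 14 did. These are descriptions of the listed genes, with no test.

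**Figure D1:**
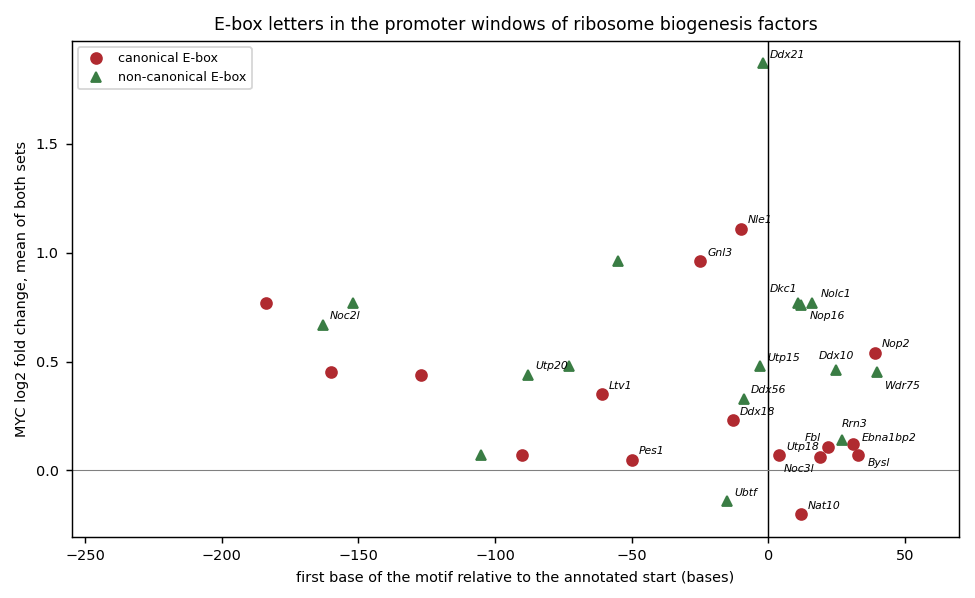
Position of E-box letters in the promoter windows of ribosome biogenesis factors (x axis, bases from the annotated start to the first base of the motif) against the log2 fold change with MYC averaged over both sets (y axis). Circles are the canonical CACGTG and triangles the non-canonical CACGCG, the only non-canonical form searched. Each gene name stands at its motif nearest the window's end. Nle1 and Gnl3 lie high with a canonical motif close to the start, while Nat10, also with one close to the start, lies lowest at -0.20.

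To ask which of these factors differ between cells with and without MYC, each set was fitted with limma. A gene passed the cutoffs when it differed by a fold of 1.5 or more either way and its p-value, adjusted over all 13188 genes, did not exceed 0.01. In set A, 15 of the 46 factors (32.6%) rose with MYC and 1, Nop14, fell. Of all genes tested, 12.5% rose and 14.3% fell. In set B, 20 factors (43.5%) rose and the same single gene fell, against 10.8% and 14.7% of all genes. The median log2FC of the factors was 0.42 in set A and 0.52 in set B, while the median of all genes was 0.00 in both. In these bulk libraries more cells of one kind and more RNA per cell cannot be told apart.

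At an adjusted p below 0.05 with no fold cutoff, 36 factors (78.3%) were higher and 4 lower in set A, and 37 (80.4%) higher and 3 lower in set B. By that rule 37.3% and 31.6% of all genes were higher and 39% and 33.1% lower. The MYC libraries lay above the myc-/- libraries without overlap in 31 factors of set A and 37 of set B, where 37.9% and 33.8% of all genes did so. Across the factors most values were positive, and few exceeded a doubling.

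The sets shared no library. Passing as higher in both were 13 factors: Ddx21, Gar1, Gnl3, Nle1, Nob1, Noc2l, Nop10, Nop16, Npm1, Ppan, Rrp9, Rrs1 and Wdr43. They were 86.7% of the factors that rose in set A and 65% of those that rose in set B, where over all genes the shares were 54.8% and 63.6%. Nip7 and Nop2 passed in set A alone, and Bop1, Dkc1, Mrto4, Noc4l, Nolc1, Nop56 and Nop58 in set B alone. With quantile normalization Bop1, Dkc1, Nolc1 and Nop56 passed in set A too, as did Dkc1 and Nop56 with 1 library left out. Of the 46 factors, 38 had the same sign in both sets. Pearson's r between the log2FC of the sets was 0.81 across the 46 genes, which are not independent replicates. The same values were not computed over all genes, so whether they are particular to these factors is not known.

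**Figure D2:**
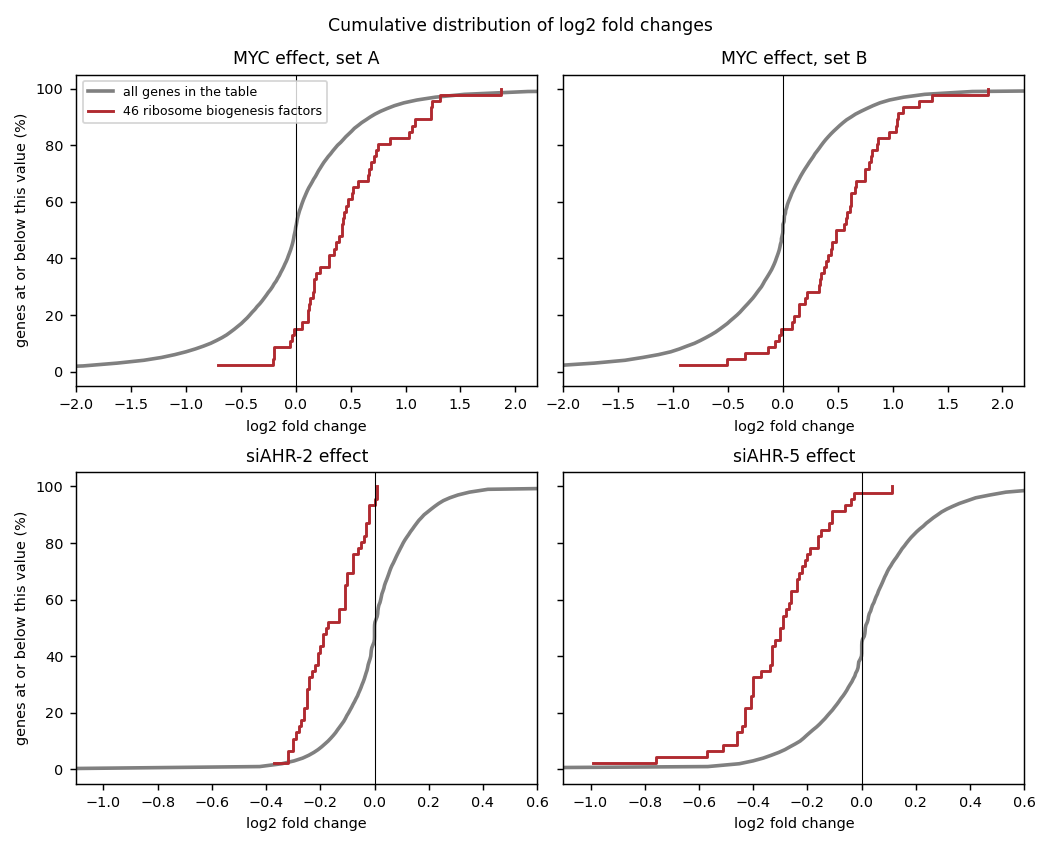
Cumulative share of genes (y axis, %) at or below each log2 fold change (x axis) for all 13188 genes (grey) and the 46 ribosome biogenesis factors (red), in the comparisons of MYC in both sets and of each siRNA against AHR. The red line lies to the right of the grey in the MYC comparisons (medians 0.42 and 0.52) and to its left with siAHR-2 and siAHR-5 (medians -0.18 and -0.30).

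**Figure D3:**
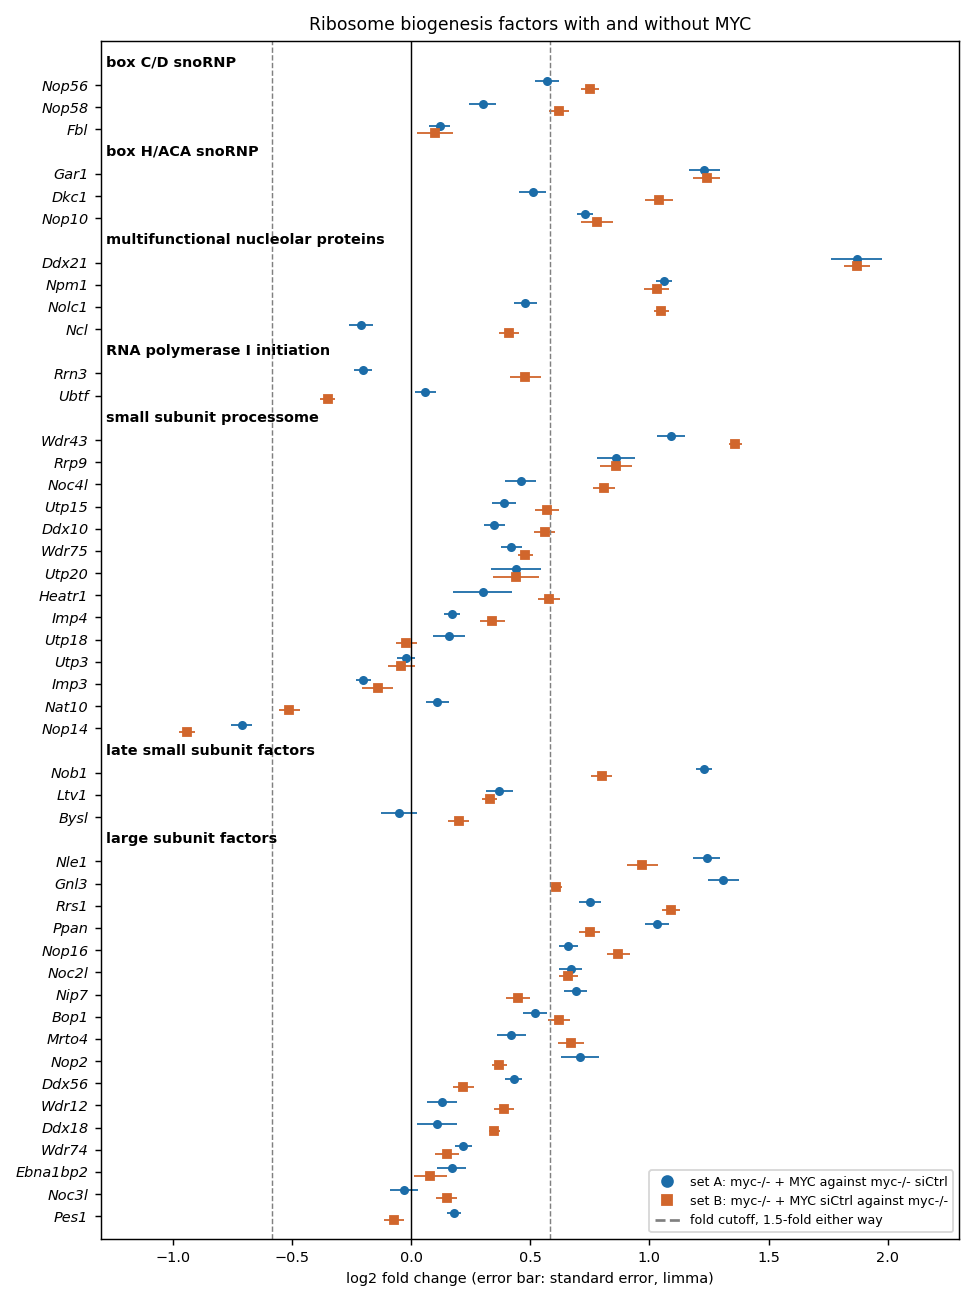
Log2 fold change with MYC (x axis) of the 46 ribosome biogenesis factors by role, with circles for set A and squares for set B, bars for standard errors (limma, 3 libraries a group) and dashed lines for the fold cutoff. Ddx21 is farthest right in both sets at 1.87, and Nop14 farthest left at -0.71 and -0.94.

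Ddx21, an RNA helicase that binds ribosomal DNA and precursor RNA, was the factor with the highest log2FC in both sets. Its log2 values were 13.09, 13.03 and 13.01 in myc-/- siCtrl and 14.58, 15.05 and 15.11 in myc-/- + MYC. In set B they were 14.72, 14.52 and 14.66 in myc-/- and 16.51, 16.50 and 16.51 in myc-/- + MYC siCtrl. The groups lay far apart in both sets, with the first MYC library of set A below the other two. The log2FC was 1.87 (SE 0.11, adjusted p = 2.38e-08, limma) in set A and 1.87 (SE 0.05, adjusted p = 1.76e-06) in set B, or 3.65-fold and 3.66-fold.

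Npm1, nucleophosmin, a chaperone of the granular nucleolus, rose 2.08-fold and 2.04-fold. Its values were 15.71, 15.64 and 15.63 in myc-/- siCtrl and 16.68, 16.76 and 16.72 in myc-/- + MYC, then 16.74, 16.87 and 16.73 in myc-/- and 17.82, 17.75 and 17.87 in myc-/- + MYC siCtrl. No libraries of opposite groups overlapped. Nolc1, a chaperone of snoRNPs, passed in set B (log2FC 1.05) and had a log2FC of 0.48 in set A. Ncl, nucleolin, which binds the precursor RNA and is among the most abundant nucleolar proteins, went in opposite directions. Its values were 16.65, 16.61 and 16.58 in myc-/- siCtrl against 16.27, 16.45 and 16.48 in myc-/- + MYC, and 17.65, 17.66 and 17.66 in myc-/- against 18.07, 18 and 18.13 in myc-/- + MYC siCtrl. The MYC libraries thus lay below the others in set A (log2FC -0.21, SE 0.05) and above them in set B (0.41, SE 0.04), neither past the fold cutoff.

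Of the box H/ACA snoRNP, which guides pseudouridylation, transcripts of all 3 measured genes rose in set B, where 10.8% of all genes did. In set A 2 of 3 rose, where 12.5% of all genes did. Gar1 had values of 11.01, 10.92 and 10.92 in myc-/- siCtrl, 12.02, 12.24 and 12.29 in myc-/- + MYC, 12.46, 12.54 and 12.44 in myc-/- and 13.75, 13.62 and 13.80 in myc-/- + MYC siCtrl, with a log2FC of 1.23 and 1.24. Nop10, the smallest core protein, had 12.32, 12.24 and 12.33 against 13.02, 13.02 and 13.02, and 13.28, 13.46 and 13.19 against 14.11, 14.09 and 14.08, with a log2FC of 0.73 and 0.78. The groups were separate for both genes in both sets. Dkc1, dyskerin, the pseudouridine synthase, passed in set B at 1.04 and had 0.51 in set A.

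The box C/D snoRNP guides 2′-O-methylation. The median log2FC of the transcripts of its 3 measured genes was 0.30 in set A and 0.62 in set B. For the box H/ACA genes the medians were 0.73 and 1.04, and the difference was not tested. In set A the ranges of the 2 particles overlapped (0.12 to 0.57 and 0.51 to 1.23). Nop56, a core protein, had 13.74, 13.71 and 13.68 in myc-/- siCtrl and 14.14, 14.35 and 14.35 in myc-/- + MYC (log2FC 0.57), and 14.74, 14.82 and 14.74 in myc-/- and 15.48, 15.50 and 15.57 in myc-/- + MYC siCtrl (0.75). Its partner Nop58 had a log2FC of 0.30 and 0.62. Both passed in set B and not in set A. Fbl, fibrillarin, the methyltransferase of the particle, had 13.75, 13.73 and 13.76 against 13.75, 13.92 and 13.92 in set A, and 14.82, 14.99 and 14.76 against 14.88, 14.93 and 15.06 in set B. The groups of Fbl overlapped in both sets, with a log2FC of 0.12 (SE 0.04, adjusted p = 0.0317) and 0.10 (SE 0.08, adjusted p = 0.304).

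The 2 measured initiation factors of RNA polymerase I passed the cutoffs in neither set. Ubtf, which binds the ribosomal promoter, had 14.99, 15.01 and 15.02 in myc-/- siCtrl and 14.95, 15.11 and 15.13 in myc-/- + MYC, where the groups overlapped. In set B it had 15.94, 16.01 and 15.95 in myc-/- and 15.60, 15.60 and 15.66 in myc-/- + MYC siCtrl, a log2FC of -0.35 (SE 0.03, adjusted p = 1.82e-04). Rrn3, which recruits the polymerase, had 12.42, 12.40 and 12.40 against 12.13, 12.23 and 12.25 in set A, all MYC libraries lower (log2FC -0.20). In set B it had 13.03, 13.09 and 12.95 against 13.49, 13.41 and 13.62, all MYC libraries higher (0.48).

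**Figure D4:**
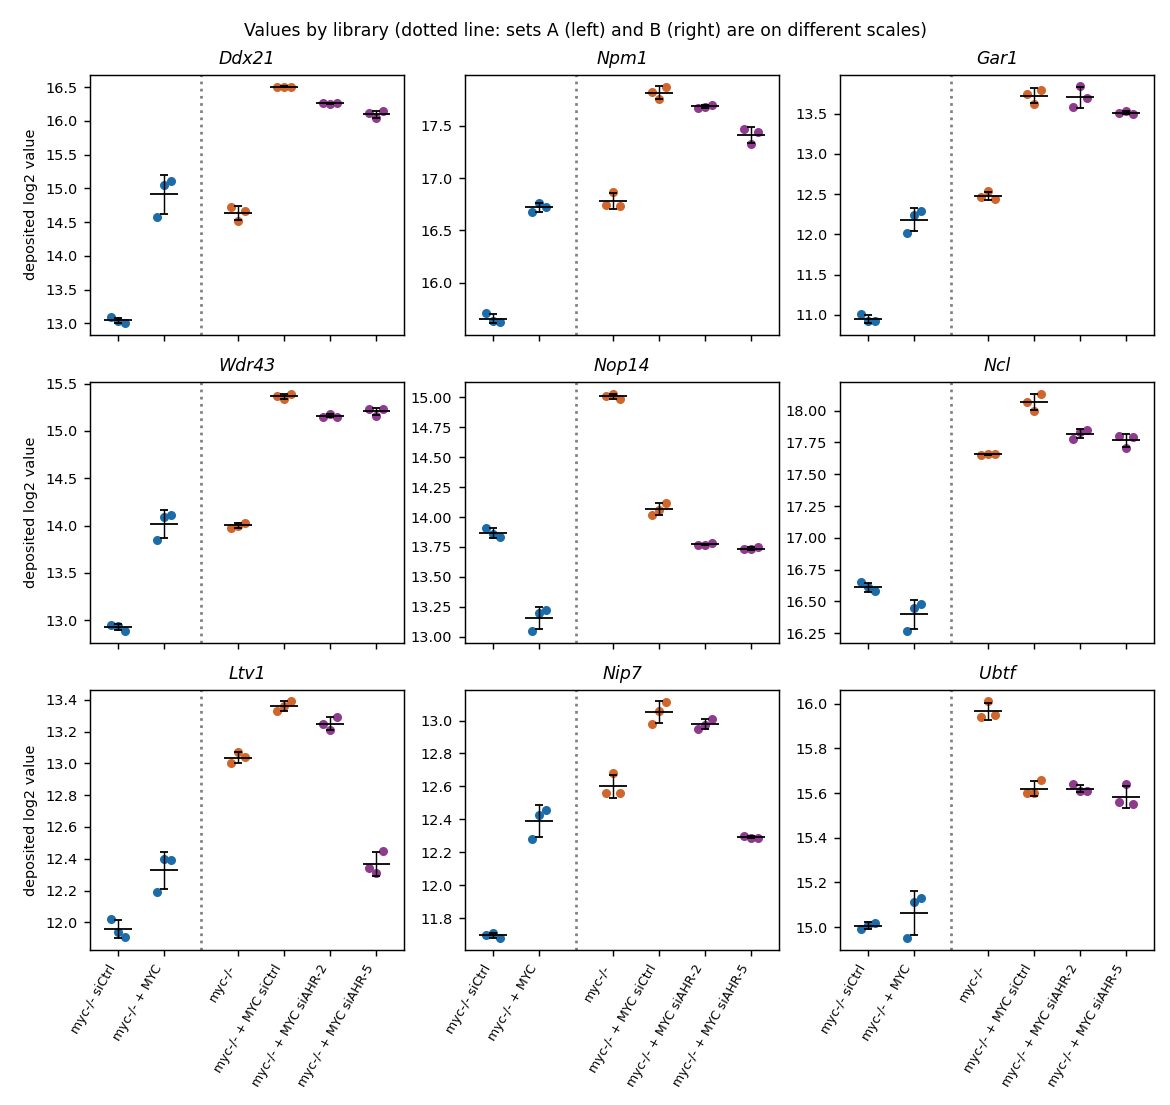
Deposited log2 values (y axis) of 9 ribosome biogenesis factors in each library (points) by group (x axis), with the mean (line) and SD (bar, 3 libraries a group); the dotted line divides sets A and B, which are on different scales. Ddx21, Npm1, Gar1 and Wdr43 are higher and Nop14 lower with MYC in both sets, and Ltv1 and Nip7 are lowest in their set with siAHR-5 (12.31 to 12.45 and 12.29 to 12.30).

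The small subunit processome is the assembly that forms on the nascent precursor. Of 14 genes for its proteins, 2 rose and 1 fell in set A (14.3% and 7.14%, against 12.5% and 14.3% of all genes). In set B 3 rose and 1 fell (21.4% and 7.14%, against 10.8% and 14.7%). In set A the share that rose was close to that of all genes. Wdr43 had 12.95, 12.94 and 12.89 in myc-/- siCtrl and 13.85, 14.09 and 14.11 in myc-/- + MYC (log2FC 1.09), and 13.98, 14.00 and 14.03 in myc-/- and 15.37, 15.34 and 15.39 in myc-/- + MYC siCtrl (1.36). Rrp9, a protein bound to the U3 snoRNA, rose by a log2FC of 0.86 in each set, and Noc4l, which works with Nop14, passed in set B alone (0.46 and 0.81). Nop14 moved the other way. Its values were 13.91, 13.86 and 13.83 in myc-/- siCtrl and 13.05, 13.20 and 13.22 in myc-/- + MYC, and 15.01, 15.03 and 14.99 in myc-/- and 14.02, 14.06 and 14.12 in myc-/- + MYC siCtrl. No MYC library reached a myc-/- library, and the log2FC was -0.71 (SE 0.04, adjusted p = 5.76e-08) and -0.94 (SE 0.03, adjusted p = 3.70e-06). With quantile normalization the value of Nop14 in set A was -0.56, short of the fold cutoff. The other 10 processome genes had log2FC between -0.51 and 0.58 and passed in neither set. Among them were Heatr1, Utp15 and Utp20, whose proteins bind or scaffold the precursor, and the genes of the helicase Ddx10 and the acetyltransferase Nat10. Heatr1, Utp15 and Ddx10 lay just under the fold cutoff in set B (0.58, 0.57 and 0.56) and passed there with quantile normalization, with median centring and with 1 library left out, and Utp20 passed in set A with 1 library left out.

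Nob1, the nuclease that makes the last cut of 18S rRNA, rose in both sets. It had 12.12, 12.12 and 12.14 in myc-/- siCtrl, 13.39, 13.37 and 13.31 in myc-/- + MYC (log2FC 1.23), 12.85, 12.95 and 12.83 in myc-/- and 13.64, 13.67 and 13.71 in myc-/- + MYC siCtrl (0.80). The other late factors of the small subunit did not pass. Bysl, bystin, had 12.24, 12.18 and 12.24 against 11.95, 12.23 and 12.31, overlapping, and 13.23, 13.38 and 13.27 against 13.48, 13.49 and 13.52, a log2FC of 0.20. Ltv1, which helps the small subunit leave the nucleus, had 0.37 and 0.33.

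Of 17 large subunit factors, 8 (47.1%) rose in each set, against 12.5% and 10.8% of all genes, and none fell in either, against 14.3% and 14.7%. Nle1, which acts with the remodelling ATPase of the large subunit, had 11.09, 11.24 and 11.20 in myc-/- siCtrl and 12.30, 12.46 and 12.50 in myc-/- + MYC (log2FC 1.24), and 12.05, 12.20 and 12.03 in myc-/- and 12.99, 13.15 and 13.04 in myc-/- + MYC siCtrl (0.97). Rrs1 (0.75 and 1.09), Ppan (1.03 and 0.75), Nop16 (0.66 and 0.87) and Noc2l (0.67 and 0.66) also rose in both sets. Bop1, Pes1 and Wdr12 form the PeBoW complex of large subunit maturation. Of these only Bop1 passed, in set B (0.52 and 0.62), while Wdr12 had 0.13 and 0.39. Pes1 had 13.92, 13.98 and 13.95 against 14.09, 14.17 and 14.12 in set A (0.18), and 14.78, 14.89 and 14.76 against 14.71, 14.76 and 14.77 in set B, where the groups overlapped (-0.07). The partners of 1 complex thus differed in size of log2FC, and the difference between genes was not tested.

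One library stood apart in these genes. In myc-/- + MYC, replicate 1 was the lowest of the 3 libraries in 43 of the 46 factors (93.5%), against 41.8% of all genes, and lay below the mean of the other two by a median of 0.18 (log2). Its median over the factors was 12.59, against 12.88 and 12.88 in the other two and 12.38 to 12.42 in myc-/- siCtrl. Without it, 18 factors rose in set A and their median log2FC was 0.47. No other library was lowest in more than 60.9% of the factors. That share was of replicate 1 of myc-/- + MYC siCtrl, against 31.6% of all genes. Replicate 3 of the same group was lowest in 4.3% of the factors, against 30.5% of all genes.

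Whether the response to MYC differed between the sets was tested in one fit of 12 libraries, the 6 of set A with the myc-/- and the myc-/- + MYC siCtrl libraries of set B. Of all genes, 6.79% had a larger log2FC in set B past the cutoffs and 9.67% a smaller one. Of the 46 factors 2 (4.35%) passed upwards and 2 (4.35%) downwards, smaller shares than those of all genes. They were Rrn3 (difference 0.69, SE 0.08) and Ncl (0.62, SE 0.07) upwards and Gnl3 (-0.70, SE 0.08) and Nat10 (-0.63, SE 0.07) downwards, with adjusted p from 2.10e-06 to 5.40e-06 (limma). Nolc1 (0.57) and Nob1 (-0.43) came next on either side. At an adjusted p below 0.05 with no fold cutoff, 14 factors (30.4%) had a larger and 11 (23.9%) a smaller log2FC in set B, against 24.8% and 30.1% of all genes. Gnl3, nucleostemin, a GTP-binding protein of proliferating cells, rose in both sets, from 12.32, 12.23 and 12.17 to 13.38, 13.67 and 13.59 and from 13.61, 13.64 and 13.60 to 14.23, 14.23 and 14.23. Nat10 had 12.47, 12.46 and 12.41 in myc-/- siCtrl and 12.45, 12.60 and 12.64 in myc-/- + MYC, overlapping, and 13.29, 13.34 and 13.26 in myc-/- and 12.72, 12.77 and 12.86 in myc-/- + MYC siCtrl, all MYC libraries lower. Without replicate 1 of myc-/- + MYC the difference for Ncl was 0.56, and with median centring that for Nat10 was -0.54, both short of the fold cutoff. Transfection, scale and set change together here and cannot be told apart.

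The question of what AHR contributes was addressed in myc-/- + MYC cells. Both siRNAs were compared with the same 3 siCtrl libraries, so their results are not independent, and the MYC comparison in set B used those libraries too. With siAHR-2 none of the 46 factors passed the cutoffs in either direction, where 0.159% of all genes passed as higher and 0.311% as lower. By unadjusted p below 0.05, 33 factors were lower and 0 higher, against 20.5% and 19.9% of all genes. At an adjusted p below 0.05 with no fold cutoff (limma), 31 factors (67.4%) were lower and 0 higher, against 15.5% and 13.7% of all genes. In 33 factors the siAHR-2 libraries lay below the siCtrl libraries without overlap, as did those of 21.8% of all genes. The median log2FC was -0.18. Without replicate 1 of siAHR-2 the 31 became 19.

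With siAHR-5, 2 factors passed as lower, Ltv1 and Nip7, and none as higher, where 0.849% and 1.47% of all genes did. At an adjusted p below 0.05, 38 factors (82.6%) were lower and 0 higher, against 18.1% and 21.1% of all genes; by unadjusted p below 0.05, 41 were lower and 0 higher, against 21.2% and 26.5% of all genes. In 41 factors the groups did not overlap, with siAHR-5 lower, as in 22.2% of all genes. The median log2FC was -0.30. The library medians over the factors were 13.91 to 13.94 with siCtrl, 13.74 to 13.80 with siAHR-2, 13.58 to 13.61 with siAHR-5 and 13.32 to 13.37 in myc-/- cells. Cell type markers moved with siAHR-5 as well. The fibroblast markers Thy1 and Pdgfrb were at 11.34 to 11.44 and 11.68 to 11.83 with siCtrl and at 12.12 to 12.18 and 12.27 to 12.40 with siAHR-5. Vim went the other way, from 19.42 to 19.48 with siCtrl down to 18.95 to 19.01 with siAHR-5. With siAHR-2 Vim was at 19.08 to 19.10. Of 10 fibroblast markers 3 were higher and 2 lower with siAHR-5 at an adjusted p below 0.05, and with siAHR-2 0 were higher and 2 lower. Their summed log2 value was 122.6 to 122.8 with siCtrl, 122.1 to 122.4 with siAHR-2 and 123.6 to 124 with siAHR-5. By the same rule 2 of 5 endothelial markers were higher with siAHR-5 and none passed it with siAHR-2, with sums of 33.2 to 33.4, 33.2 to 33.3 (siAHR-2) and 33.5 to 33.7 (siAHR-5). Of 5 hematopoietic markers 1, Cd14, was higher with siAHR-5 (10.51 to 10.69, against 9.91 to 10.18 with siCtrl), and none passed with siAHR-2. No epithelial or muscle marker passed that rule with either siRNA. Of 3 Y-linked genes 2 were lower with siAHR-2 and 1 with siAHR-5. Eif2s3y was at 13.12 to 13.26 with siCtrl, 12.94 to 13.02 with siAHR-2 and 12.47 to 12.65 with siAHR-5, Ddx3 at 13.67 to 13.78, 13.52 to 13.61 and 13.71 to 13.91, and Ddx3y at 1.49 to 1.53 throughout. The part of these marker differences in the results for the factors was not tested.

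**Figure D5:**
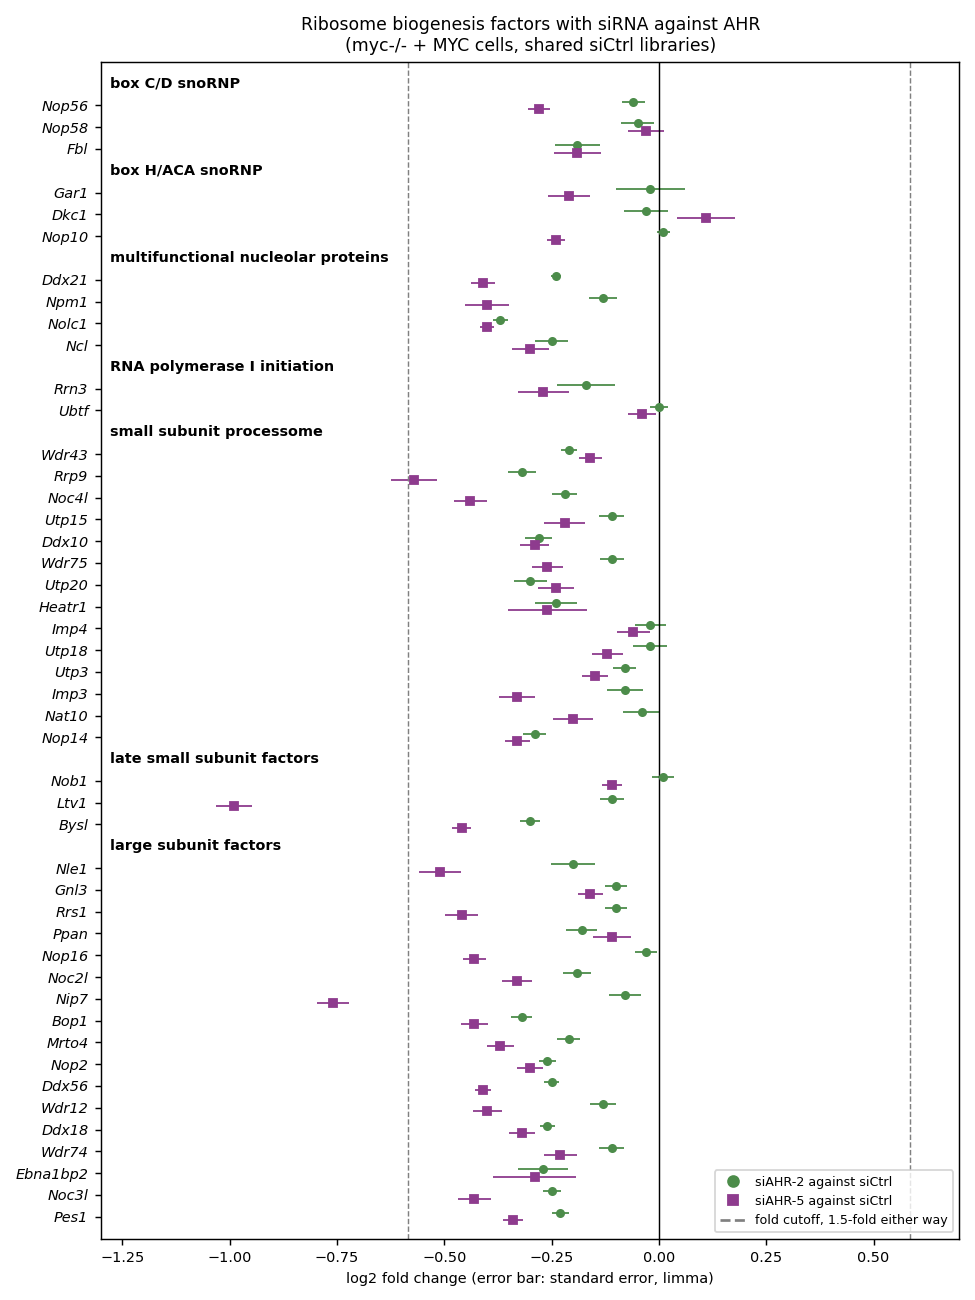
Log2 fold change with siAHR-2 (circles) and siAHR-5 (squares) against siCtrl in myc-/- + MYC cells (x axis) for the 46 ribosome biogenesis factors by role, with standard errors (limma, 3 libraries a group) and dashed lines at the fold cutoff. Nearly all points lie left of 0, and only Ltv1 (-0.99) and Nip7 (-0.76) lie beyond the cutoff, both with siAHR-5.

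The largest differences with siAHR-2 were those of Nolc1, Rrp9 and Bop1. Nolc1 had 16.56, 16.56 and 16.53 with siCtrl, 16.15, 16.19 and 16.20 with siAHR-2 and 16.14, 16.16 and 16.16 with siAHR-5. The log2FC was -0.37 (SE 0.02, adjusted p = 4.20e-04) with siAHR-2 and -0.40 (SE 0.02, adjusted p = 2.01e-04) with siAHR-5. Both siRNA groups lay below siCtrl and close to each other. Rrp9 had 13.63, 13.67 and 13.74, then 13.34, 13.39 and 13.37, then 13.03, 13.21 and 13.11, a log2FC of -0.32 and -0.57, and it passed as lower with siAHR-5 under median centring and with 1 library left out. Bop1 had 15.10, 15.17 and 15.18, then 14.83, 14.82 and 14.83, then 14.71, 14.76 and 14.68, a log2FC of -0.32 and -0.43. For these 2 genes the siAHR-5 libraries were lowest.

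Ltv1 had 13.33, 13.36 and 13.39 with siCtrl, 13.25, 13.21 and 13.29 with siAHR-2 and 12.34, 12.31 and 12.45 with siAHR-5. The siAHR-5 libraries stood below every other library of the set, myc-/- included (13.00 to 13.07). The log2FC was -0.11 (SE 0.03, adjusted p = 0.0332) with siAHR-2 and -0.99 (SE 0.04, adjusted p = 2.05e-04) with siAHR-5, a level of 0.503 of siCtrl. Nip7, a factor of 60S maturation, had 12.98, 13.06 and 13.11, then 12.95, 12.97 and 13.01, then 12.30, 12.29 and 12.29, and 12.56 to 12.68 in myc-/- cells. Its log2FC was -0.08 (SE 0.04, adjusted p = 0.196) with siAHR-2 and -0.76 (SE 0.04, adjusted p = 2.58e-04) with siAHR-5.

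The siRNAs were compared directly. Ltv1 (-0.88, SE 0.04, adjusted p = 1.32e-04) and Nip7 (-0.68, SE 0.02, adjusted p = 5.44e-05) passed as lower with siAHR-5 than with siAHR-2, and no factor as higher, where 0.849% and 1.33% of all genes did. By adjusted p below 0.05, 26 factors (56.5%) were lower with siAHR-5 and 0 higher, against 17% and 22.1% of all genes; by unadjusted p below 0.05, 29 were lower and 0 higher, against 20.8% and 26% of all genes. Ahr itself had a log2FC of -0.11 between the siRNAs (SE 0.06, adjusted p = 0.211). Among the factors with small values in both siRNA comparisons were Ubtf (0.00 and -0.04), Nop58 (-0.05 and -0.03), Imp4, a U3 protein (-0.02 and -0.06), Dkc1 (-0.03 and 0.11), Nob1 (0.01 and -0.11) and Utp18 (-0.02 and -0.12). Nop14, the factor that fell with MYC, was lower with the siRNAs too (13.77, 13.77 and 13.78, then 13.73, 13.73 and 13.75).

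Other genes of the pathway, from lists of genes outside the 46, were measured in the same fits. Of 72 further ribosome biogenesis factors, 18 rose and 1 fell in set A and 15 rose and 2 fell in set B, so that 25% and 20.8% rose and 1.39% and 2.78% fell. Of all genes 12.5% and 10.8% rose and 14.3% and 14.7% fell, and the counts of the smaller lists below stand against the same shares. Rpf2 (log2FC 1.48 and 1.51), which brings the 5S particle to the large subunit, and Dimt1 (1.45 and 1.14), an 18S rRNA methyltransferase, were highest, and Spata5 (-0.71 and -0.79) and Eif6 (-0.58 and -0.61), an anti-association factor of the large subunit, lowest. At an adjusted p below 0.05, 46 of the 72 (63.9%) were lower with siAHR-2 and 58 (80.6%) with siAHR-5, against 15.5% and 18.1% of all genes. In each comparison 1 of the 72 (1.39%) was higher, against 13.7% and 21.1% of all genes. Of 10 genes of the RNA exosome, the nuclease that trims precursor RNA, 5 (50%) and 6 (60%) rose with MYC and none fell. Of 12 genes of RNA polymerase I and its cofactors, 6 (50%) rose in set A, and 7 (58.3%) rose and 1 fell in set B. Of 10 snoRNP assembly genes, 4 (40%) and 3 (30%) rose, among them the ATPases Ruvbl1 (1.03 and 0.93) and Ruvbl2 (0.99 and 1.24). Ruvbl1 also passed as lower with siAHR-5 (-0.68).

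Some of these values may include reads of other genes. RefSeq names pseudogenes of 19 of the 46 factors, 20 of Npm1, 16 of Nip7, 14 of Rrs1 and 9 of Ddx21, and how reads shared with such copies were counted is not given in the sources used here. The spans of 11 factors overlap another protein-coding gene, among them Nle1, Gnl3, Rrp9, Noc2l, Nop56, Noc4l and Bop1, and the library kit did not mark strand. The spans of 6, Wdr43, Gnl3, Ppan, Nop56, Nop58 and Ncl, hold snoRNA genes.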

How the data were processed

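Poly-A RNA of 18 libraries was sequenced, and the authors aligned reads to rn6 with HISAT2 2.1.0, dropped genes under 10 reads in total, and applied DESeq2 normalization. The authors deposited log2 values for 13188 genes, labelled log CPM, but off the log scale each library sums to 86.3 to 161 times a CPM total. Read counts and depth are therefore unknown, and the spread between 3 libraries is the only error. The counter and annotation are not given in the sources used here. Values were tested as deposited with limma 3.58.1 (lmFit, eBayes with trend) in R 4.3.3, each comparison on its own groups, with Benjamini-Hochberg adjustment over all 13188 genes. The cutoffs (1.5-fold, adjusted p 0.01) and the rule without a fold (adjusted p below 0.05) follow the study. On simulated data, with 200 genes given a log2FC of 1, 190 to 200 were recovered in the comparisons within a set, with 0 false calls. For the difference between sets a log2FC of 2 was simulated, and 200 of 200 were recovered. The noise was drawn independently for each gene, with no shift shared by a library. Calls without a fold cutoff and smaller differences were not simulated, so these counts do not bear on them. Alternatives were another cutoff, one fit of all libraries, no trend, quantile normalization, median centring, a low-value filter (mean at least 1), a pseudocount of 1, a replicate block and each library left out. Members and lists were chosen with earlier results of these data known. Genes named with all values were the highest and lowest of each role by log2FC averaged over the sets, Ncl, Npm1, Fbl, Ubtf and Rrn3, those past the cutoffs (or the 3 largest) for the siRNAs and the 3 extremes of the difference. Promoter letters came from RefSeq (GRCr8), where Wdr43, Rrs1 and Bop1 had no entry. Figures were drawn with matplotlib 3.10.9.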

Additional observations from a re-analysis of the deposited data

Results flagged for a closer look

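The response to MYC differed between the sets of libraries, by the test of the difference itself (limma, set B minus set A), in 4 factors, 4.35% of the 46 upwards and 4.35% downwards, against 6.79% and 9.67% of all genes. Rrn3 had a difference of 0.69 and Ncl of 0.62, each lower with MYC in set A and higher in set B. Gnl3 had a difference of -0.70, with MYC libraries higher in both sets. Nat10 had a difference of -0.63, with overlapping groups in set A and lower values with MYC in set B. Set, scale and transfection changed together, and their part was not tested.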

How the results depend on the processing

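No member past the cutoffs changed direction under any alternative listed in the methods. With siAHR-2 none passed, so none could change there. Of members not past the cutoffs, signs changed with quantile normalization in 3 (set A), 3 (set B), 6 (siAHR-2) and 2 (siAHR-5). With 1 library left out they changed in 3, 2, 7 and 0. The MYC counts, the siAHR-5 calls of Ltv1 and Nip7 and the medians held with all libraries in one fit and without the trend. They also held with the filter and with the pseudocount. Neither one fit, the trend nor the filter can change a member's log2FC. The lowest member mean was 10.02, far above the filter and the pseudocount. Little change in the medians was therefore possible. With no fold cutoff (adjusted p below 0.05) the members called were 36 higher and 4 lower (set A), 37 and 3 (set B), 31 lower (siAHR-2), 38 lower (siAHR-5), 26 lower (siAHR-5 against siAHR-2), and 14 higher and 11 lower (difference between sets, where 24.8% and 30.1% of all genes were called). With quantile normalization Nop14 no longer passed in set A, leaving 0 lower, while Bop1, Dkc1, Nolc1 and Nop56 were gained there and Ddx10, Heatr1, Ncl and Utp15 in set B, and the median log2FC was 0.608 (set B), -0.133 (siAHR-2) and -0.269 (siAHR-5). With median centring it was 0.564 (set B), -0.206 (siAHR-2), -0.354 (siAHR-5) and -0.146 (siAHR-5 against siAHR-2), and the difference between sets had 4 higher and 1 lower. For that difference 7 members not past the cutoffs changed sign with median centring, and 9 with 1 library left out. The cause of these shifts was not tested. Leaving out each library in turn, the median was 0.361 to 0.465 in set A, 0.513 to 0.555 in set B, -0.188 to -0.133 with siAHR-2 and -0.315 to -0.274 with siAHR-5. The counts were 15 to 18 higher (set A), 20 to 22 higher (set B), 19 to 28 lower at adjusted p below 0.05 with siAHR-2, 34 to 39 with siAHR-5, and 1 to 3 higher for the difference, the 1 being without myc-/- + MYC replicate 1. Where 1 group keeps 2 libraries the spread is pooled.

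Whether the replicate numbers pair the libraries is not settled. Same-numbered libraries correlated in their deviations from the group means between -0.26 and 0.24. Differently numbered libraries were not correlated for reference. With the number as a block, members past the cutoffs stayed at 15 higher and 1 lower (set A), 20 and 1 (set B) and 2 lower (siAHR-5), and those lower with siAHR-2 at adjusted p below 0.05 went from 31 to 22. Without depth, how well low changes could be seen is unknown.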
